A study of Mus with 4 samples.

Results

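Class II antigen presentation was described here from 8 mouse genes, chosen by name: Cd74, H2-Aa, H2-Ab1, H2-Eb1, H2-DMa, H2-DMb1, Ciita and Ctss. All 8 were found among the 21230 genes listed for the cochlea. RNA was sequenced from cochleae of mice carrying the Otof c.1315 C>T change, which places an early stop codon in otoferlin, a calcium sensor that inner hair cells need to release transmitter. The RESTARTv3 group held 2 libraries from mutant mice that received RESTART v3, and the untreated group held 2 libraries from mutant mice that did not, so both groups carried the same Otof allele. RESTART v3 combines a guide snoRNA, an isoform of the pseudouridine synthase DKC1 and a near-cognate tRNA, which together promote reading through a stop codon. Per the study's methods it was delivered in the viral vector AAVie through a semicircular canal at 4 weeks of age, and its surgery was done on left ears. The labels name no sham-injected or vector-only library, so the effects of the injection, of the vector and of RESTART v3 itself cannot be told apart. Per the methods the mutant line was made with C57BL/6J donor mice. The sex of the mice and their age at collection are not given for these libraries. The study's text places these libraries before and after treatment, while a figure legend describes mice with or without the injection. Whether the groups differed in age is therefore not known, and age cannot be told apart from treatment. The study asked of these RNA libraries whether RESTART v3 changed global or inflammatory gene expression in the cochlea.

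MHC class II molecules are pairs of an alpha and a beta chain that carry peptides from endosomes to the surface of antigen-presenting cells, where CD4+ T cells read them. Newly made pairs are held by the invariant chain CD74, which endosomal proteases such as cathepsin S cut down to a short peptide, and the DM molecule then exchanges that peptide for others. The transactivator CIITA sets how much of these genes is transcribed, and interferon gamma, acting in part through IRF1, is a known inducer of it. Macrophages, dendritic cells and B cells are the usual sources of these transcripts, and the cochlea holds resident macrophages.

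Values are RPKM, reads scaled to gene length and to the library total. The length in this table was the gene span with introns, so levels between genes are compared per length of the whole gene. Recovered library totals were 71144247 and 61040077 reads in RESTARTv3 replicates 1 and 2, and 39650172 and 56739609 reads in untreated A and B, where the letters carry no order. Genes in the table took up 53.7% and 26.7% of these totals in RESTARTv3 replicates 1 and 2, against 49.9% and 56.2% in untreated A and B. RESTARTv3 replicate 2 therefore lay low for most genes, with a median of 0.151 RPKM beside 0.202 to 0.319 RPKM in the other libraries. For that reason RPKM after median-of-ratios scaling, which divides each library by its median ratio to the average library, is given beside the deposited scale. Untreated library A stood apart in composition. This was measured after scaling, over the 5076 genes averaging 1 RPKM or more. In library A they lay a median of 0.98 log2 units from the mean of the other libraries, beside 0.33 to 0.40 in the other 3. Hair cell markers varied in level, in a table that holds no value of 0 for any gene. Pou4f3 was the highest of them in every library, reaching 2.75 RPKM in untreated library A, and Otof the lowest. Otof itself was at 0.0466 and 0.0154 RPKM in RESTARTv3 replicates 1 and 2 and at 0.0754 and 0.0462 RPKM in untreated A and B.

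The class II genes spanned a wide range of levels, from the invariant chain at the top to the transactivator at the bottom. Per length, the order was Cd74, H2-Aa, H2-Ab1, H2-Eb1, Ctss, H2-DMb1, H2-DMa and Ciita in 3 of 4 libraries. Untreated library A departed from it in 2 places, since H2-Ab1 lay above H2-Aa there and H2-DMb1 lay above Ctss. Members rested on 234 to 14807 reads a library, and the 95% exact Poisson interval of a count reached at most 13.0% to either side on average, which covers counting error only. None of the 8 genes passed the test for a difference between RESTARTv3 and untreated cochleae in any fit of all 4 libraries. In the main fit of 5076 genes, which held 5 of the 8, 0% of genes were called (limma, adjusted p under 0.05), and 72 genes but 0 members had an unadjusted p under 0.05. After scaling the same 5076 genes gave 0% called and 55 genes, Ctss among them, at that unadjusted p, and on recovered reads of 18448 genes, with all 8 members, 0% were called and 401 genes, Ctss among them, reached it (limma voom). Fewer cells of a type and less RNA per cell cannot be told apart in such bulk tissue.

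Cd74 encodes the invariant chain, and it overlaps Mir5107 in the annotation. It was at 23.6 and 8.89 RPKM in RESTARTv3 replicates 1 and 2, against 22.6 and 13.0 RPKM in untreated A and B. The highest and the lowest value both belonged to RESTARTv3 libraries, so the groups overlapped. After scaling, Cd74 had 18.3 and 14.0 RPKM in RESTARTv3 cochleae and 24.4 and 9.87 RPKM in untreated cochleae, with the untreated libraries now outermost. The group means on the deposited scale were 16.3 ± 10.4 RPKM in RESTARTv3 and 17.8 ± 6.82 RPKM in untreated cochleae (SD, n = 2 each). The log2 change, RESTARTv3 minus untreated on log2(RPKM + 0.5), was -0.23, with 0.89 as its standard error (limma, Benjamini-Hochberg adjusted p = 0.998). Its sign turned with scaling, to 0.046 on recovered reads, with a 95% interval of -1.22 to 1.32 (limma voom).

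H2-Aa and H2-Ab1 encode the alpha and the beta chain of I-A, the main class II molecule of the mouse. H2-Aa had 15.7 and 6.0 RPKM in RESTARTv3 replicates 1 and 2, against 7.03 and 8.74 RPKM in untreated A and B, and RESTARTv3 libraries again held both ends. Scaling gave H2-Aa 12.2 and 9.47 RPKM in RESTARTv3 cochleae and 7.58 and 6.64 RPKM in untreated cochleae. On that scale both RESTARTv3 libraries lay above both untreated ones. The log2 change of H2-Aa was 0.30 on the deposited scale with a standard error of 0.86 (limma, Benjamini-Hochberg adjusted p = 0.998), and 0.60 on recovered reads with an interval of -0.33 to 1.53 (limma voom, Benjamini-Hochberg adjusted p = 0.771).

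Its partner chain H2-Ab1 had 14.9 and 5.06 RPKM in RESTARTv3 replicates 1 and 2, against 14.6 and 7.14 RPKM in untreated A and B. Here the groups overlapped on both scales. Scaled values of H2-Ab1 were 11.5 and 7.98 RPKM in RESTARTv3 cochleae and 15.8 and 5.42 RPKM in untreated cochleae, so the untreated libraries differed from each other by more than the RESTARTv3 libraries did. The log2 change was -0.22, with 0.86 as its standard error (limma, Benjamini-Hochberg adjusted p = 0.998). On recovered reads it was 0.070, with an interval of -1.34 to 1.48 (limma voom).

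H2-Eb1 encodes the beta chain of I-E, whose alpha chain gene H2-Ea is annotated as a transcribed pseudogene in the reference used for names. H2-Eb1 was at 6.43 and 2.29 RPKM in RESTARTv3 replicates 1 and 2, against 4.05 and 3.50 RPKM in untreated A and B. Scaling left an overlap, with 4.97 and 3.61 RPKM in RESTARTv3 cochleae and 4.37 and 2.66 RPKM in untreated cochleae. Only untreated library B lay below both RESTARTv3 libraries. Its log2 change was 0.043, with 0.80 as its standard error (limma, Benjamini-Hochberg adjusted p = 0.998), and 0.33 on recovered reads with an interval of -0.73 to 1.39 (limma voom).

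**Figure D1:**
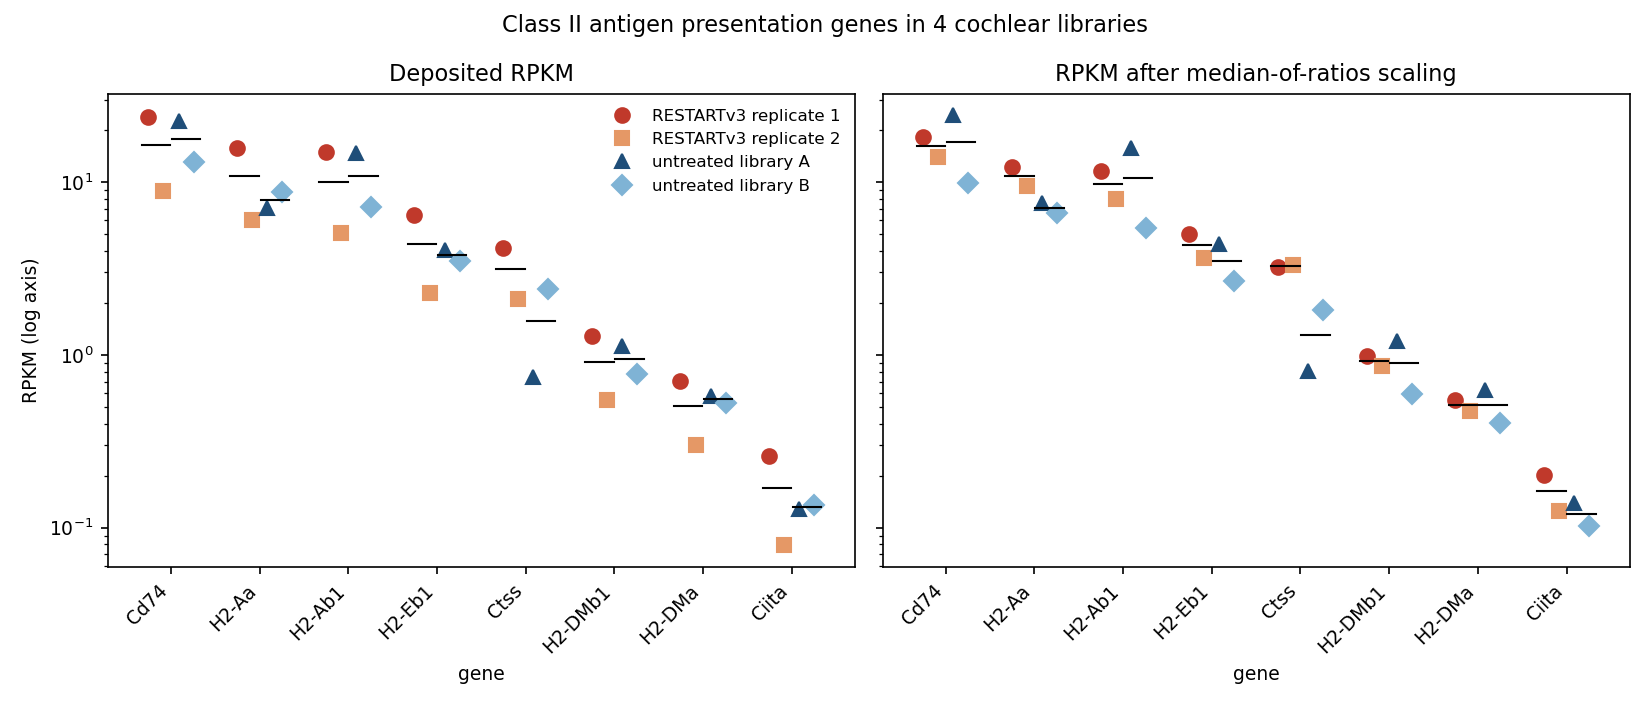
RPKM of the 8 class II genes in each library on a log axis, as deposited (left) and after median-of-ratios scaling (right), with RESTARTv3 libraries left of untreated ones and black bars at group means. On the deposited scale RESTARTv3 replicate 1 is highest for all 8 genes, and after scaling the groups lie apart for H2-Aa and Ctss.

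H2-DMa and H2-DMb1 encode the pair of chains of DM, the editor that loads peptides. Both had a mean below 1 RPKM, the minimum of the main test. H2-DMa was at 0.705 and 0.301 RPKM in RESTARTv3 replicates 1 and 2, against 0.580 and 0.529 RPKM in untreated A and B. H2-DMb1 was at 1.28 and 0.545 RPKM in RESTARTv3 replicates 1 and 2, against 1.12 and 0.776 RPKM in untreated A and B. For both genes RESTARTv3 replicate 1 was highest and replicate 2 lowest. Scaled values still overlapped, at 0.545 and 0.476 RPKM in RESTARTv3 and 0.625 and 0.402 RPKM in untreated cochleae for H2-DMa. For H2-DMb1 they were 0.990 and 0.860 RPKM in RESTARTv3 and 1.21 and 0.590 RPKM in untreated cochleae. On recovered reads, where both could be tested, the log2 change was 0.041 for H2-DMa, with an interval of -1.02 to 1.10, and 0.16 for H2-DMb1, with an interval of -1.06 to 1.38 (limma voom). H2-DMa overlaps Brd2 in the annotation, and H2-DMb1 has a close copy, H2-DMb2, next to it. The reads of both genes are therefore less certain than those of H2-Aa, H2-Ab1 and H2-Eb1, which overlap no gene there.

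Ciita, the transactivator of the class II genes, had the lowest level per length of the 8. It was at 0.259 and 0.0789 RPKM in RESTARTv3 replicates 1 and 2, against 0.129 and 0.135 RPKM in untreated A and B, from 941 and 246 reads in RESTARTv3 and 261 and 390 reads in untreated libraries. The untreated libraries nearly coincided and lay between the RESTARTv3 ones. After scaling, Ciita had 0.200 and 0.125 RPKM in RESTARTv3 cochleae and 0.139 and 0.102 RPKM in untreated cochleae, with the groups overlapping. Its log2 change on recovered reads was 0.43, with an interval of -0.70 to 1.56 (limma voom, Benjamini-Hochberg adjusted p = 0.772). Ciita overlaps Dexi in the annotation, and the strand setting of the authors' counting is not given in the sources used here.

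Ctss encodes cathepsin S, the protease that trims the invariant chain in antigen-presenting cells. It was at 4.15 and 2.11 RPKM in RESTARTv3 replicates 1 and 2, against 0.743 and 2.39 RPKM in untreated A and B. Untreated library A was far below the other 3 libraries, while untreated library B lay between the RESTARTv3 ones. Scaling brought the RESTARTv3 libraries together, at 3.21 and 3.32 RPKM, above 0.801 and 1.82 RPKM in untreated A and B, so the groups no longer overlapped. The scaled means were 3.27 ± 0.0787 RPKM in RESTARTv3 and 1.31 ± 0.718 RPKM in untreated cochleae (SD, n = 2 each). Ctss overlaps Hmgb1-ps5 in the annotation.

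The log2 change of Ctss was 0.88 on the deposited scale with a standard error of 0.74 (limma, Benjamini-Hochberg adjusted p = 0.998), and 1.12 after scaling with an interval of 0.12 to 2.11 (limma, Benjamini-Hochberg adjusted p = 0.806). On recovered reads it was 1.42 with an interval of 0.23 to 2.60 (limma voom, unadjusted p = 0.026, Benjamini-Hochberg adjusted p = 0.771). The intervals after scaling and on recovered reads exclude 0, but neither adjusted value passes. The size of the change rested in part on untreated library A. Without that library the change was smaller but above 0, at 0.88 on recovered reads (limma voom), 0.73 after scaling and 0.27 on the deposited scale. Without untreated library B the change on recovered reads was 2.02 (limma voom, Benjamini-Hochberg adjusted p = 0.00724). That last fit set both RESTARTv3 libraries against library A alone, which is then assumed to vary like them, and it called 8821 of 18448 genes, so a call in it does not set Ctss apart.

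Read together, the members followed the libraries more than the groups. On the deposited scale RESTARTv3 replicate 1 was highest and RESTARTv3 replicate 2 lowest of the 4 libraries for 7 of 8 genes, all but Ctss, which 14.4% of all listed genes also showed. On that scale 0 of 8 members had both RESTARTv3 libraries above both untreated ones (2.24% of all genes) and 0 of 8 had them below (25.2% of all genes). After scaling, 2 of 8 members, H2-Aa and Ctss, had both RESTARTv3 libraries above both untreated ones (16.2% of all genes), and 0 of 8 had them below (21.5% of all genes). With 8 members, 2 apart and higher is near that background. Untreated library B was the lowest of the 4 scaled libraries for 7 of 8 members, where it was for 12% of all genes. Both RESTARTv3 libraries lay above library B in 8 of 8 members (25.9% of all genes) and above library A in 2 of 8 (44% of all genes).

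The changes of the members therefore depended on which untreated library stood for the group. Without untreated library A all 8 log2 changes on recovered reads were above 0, at 0.72 for Cd74, 0.73 for H2-Aa, 0.86 for H2-Ab1, 0.71 for H2-Eb1, 0.39 for H2-DMa, 0.70 for H2-DMb1, 0.74 for Ciita and 0.88 for Ctss (limma voom, 0 called). Without untreated library B the change was -0.63 for Cd74, -0.74 for H2-Ab1, -0.059 for H2-Eb1, -0.29 for H2-DMa and -0.38 for H2-DMb1, and it stayed above 0 for H2-Aa at 0.48, Ciita at 0.23 and Ctss at 2.02. Leaving out a RESTARTv3 library mattered more than that for Ciita, at 0.054 without replicate 1 and 0.76 without replicate 2, and for H2-Aa, at 0.41 without replicate 1 and 0.79 without replicate 2. For the other 6 members the changes without replicate 1 and without replicate 2 lay closer together than those without library A and without library B. H2-Aa, Ciita and Ctss were the members whose change on recovered reads stayed above 0 with each of the 4 libraries left out in turn. The median change of the members on recovered reads was 0.24, beside -0.0061 for all 18448 genes. On the deposited scale the 5 tested members had a median of 0.043, beside -0.41 for all 5076 tested genes, and after scaling 0.27 beside -0.20.

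**Figure D2:**
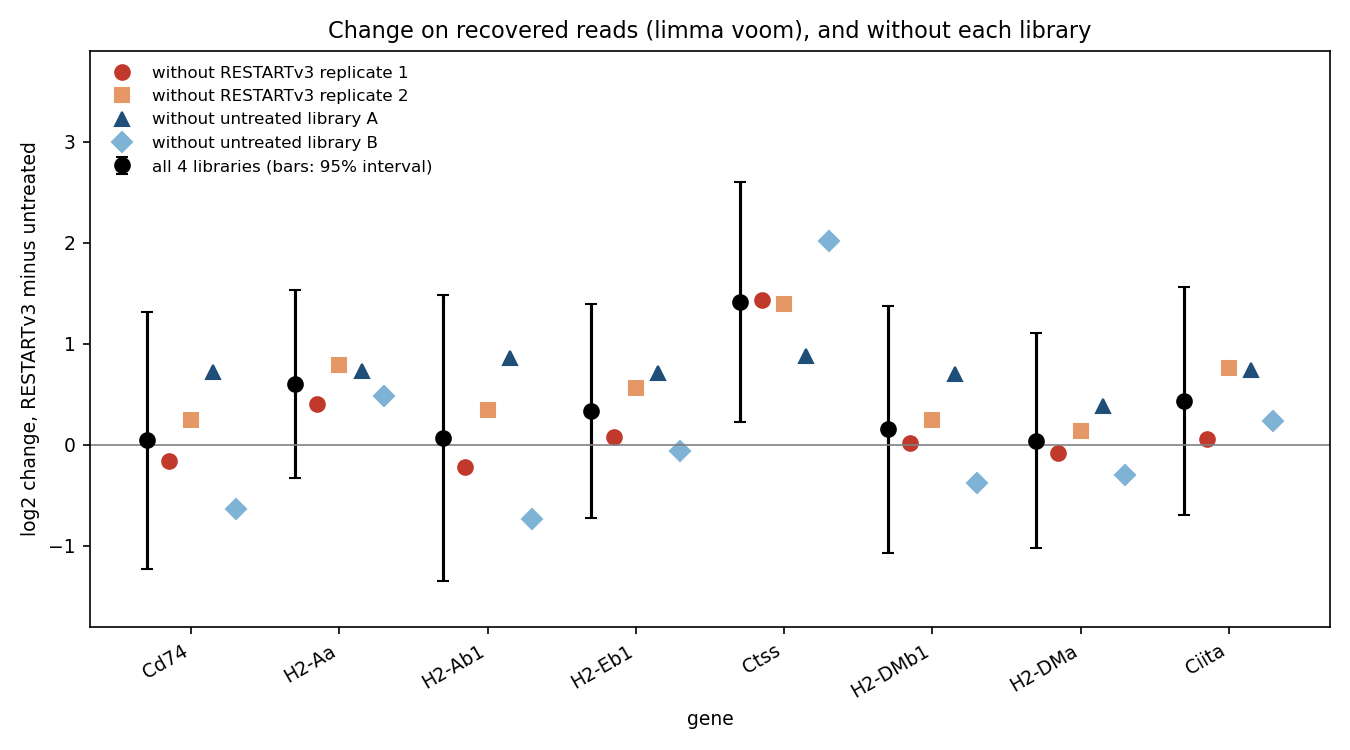
Log2 change of each class II gene on recovered reads, RESTARTv3 minus untreated (limma voom), with all 4 libraries (black, bars are 95% intervals) and with each library left out (coloured symbols). The intervals of 7 genes include 0 and that of Ctss runs from 0.23 to 2.60, and the symbols for the fits without untreated libraries A and B lie farthest apart for Cd74, H2-Ab1, H2-DMb1 and Ctss.

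Ratios between members of the same library are free of any scaling between libraries. The I-A beta chain and the invariant chain kept a steady proportion, with a Cd74 to H2-Ab1 ratio of 1.58 and 1.76 in RESTARTv3 replicates 1 and 2, against 1.55 and 1.82 in untreated A and B. The DM pair was also steady. Its H2-DMa to H2-DMb1 ratio was 0.551 and 0.553 in RESTARTv3 replicates 1 and 2, against 0.517 and 0.682 in untreated A and B. Neither ratio separated the groups, and the groups overlapped in all 9 ratios plotted.

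H2-Aa and Ctss departed from that in untreated library A. The Cd74 to H2-Aa ratio was 1.50 and 1.48 in RESTARTv3 replicates 1 and 2, against 3.22 and 1.49 in untreated A and B. The ratio of the I-A chains, H2-Aa to H2-Ab1, was 1.05 and 1.19 in RESTARTv3 replicates 1 and 2, against 0.481 and 1.22 in untreated A and B. H2-Eb1 to H2-Ab1 followed the same pattern, at 0.431 and 0.453 in RESTARTv3 replicates 1 and 2, against 0.277 and 0.490 in untreated A and B. In library A, then, Cd74 and H2-Ab1 were high beside H2-Aa and H2-Eb1, while untreated library B had nearly the proportions of the RESTARTv3 libraries. Ctss to Cd74 was 0.176 and 0.237 in RESTARTv3 replicates 1 and 2, against 0.0328 and 0.184 in untreated A and B, with library A again by itself.

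**Figure D3:**
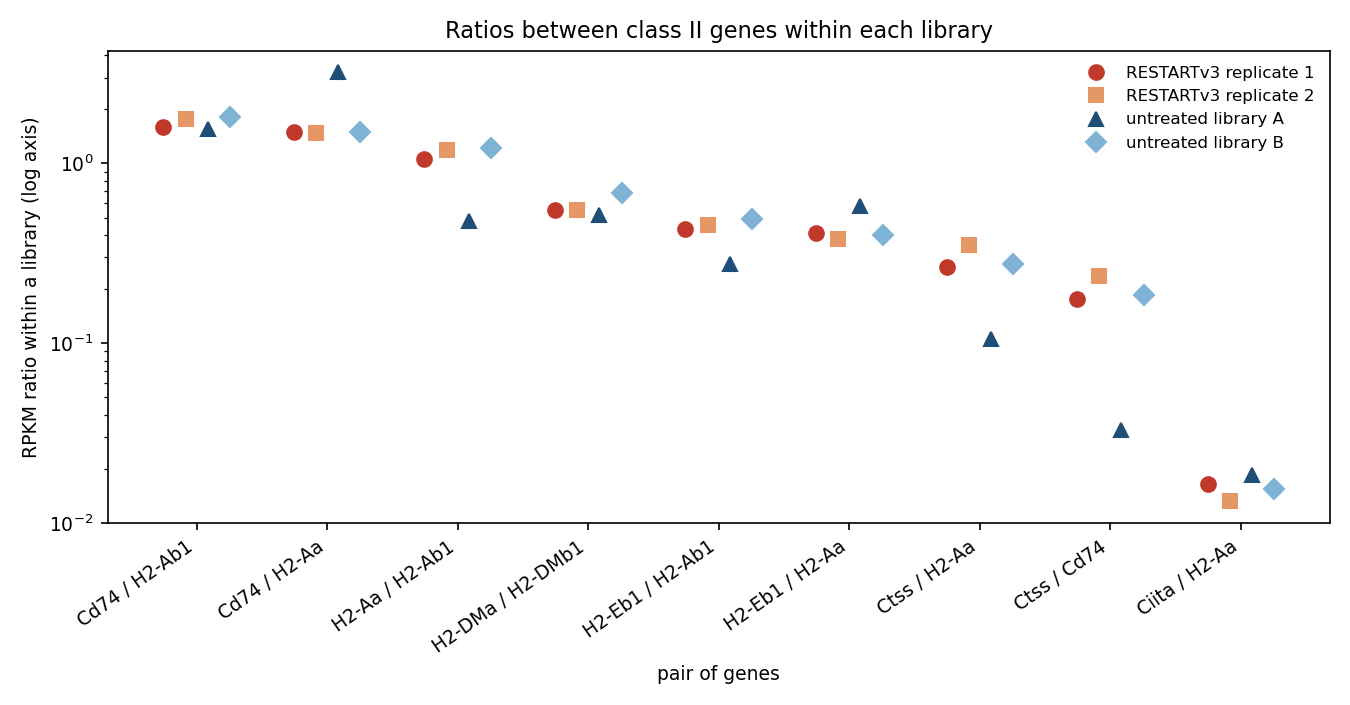
RPKM ratios between pairs of class II genes within each library, on a log axis, with RESTARTv3 libraries left of untreated ones. Untreated library A (dark triangles) lies apart from the other 3 for Cd74 to H2-Aa, at 3.22, and for Ctss to Cd74, at 0.0328, while Cd74 to H2-Ab1 stays between 1.55 and 1.82 in all 4.

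Gene span moved with the departure of library A. Among the 5076 genes averaging 1 RPKM or more, 2125 had spans up to 5000 bases. In library A these lay a median of 0.86 log2 units above the mean of the other libraries. The median was 0.57 for spans up to 10000, 0.28 for spans up to 30000 and -0.23 for longer ones. Among the members Cd74 lay 0.84 above and H2-Ab1 0.99 above, with spans of 8804 and 6192 bases. H2-Aa, with the shortest span of the members at 5080 bases, lay at -0.27, and Ctss, at 29620 bases, lay at -1.75. The part of span in these departures was not tested.

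Factors that bind the class II promoters and recruit CIITA showed no called change. Of that list, 6 of 7 genes were listed, and 0 of 6 were called on recovered reads. Their median log2 change was -0.016, beside 0.24 for the members (limma voom). Rfx5 and Rfxap, subunits of the RFX complex that binds the X box, had changes of -0.037 and -0.45. Nfya and Nfyb, subunits of NF-Y, had changes of 0.14 and 0.83. Nfyb was at 1.02 and 0.971 scaled RPKM in RESTARTv3 replicates 1 and 2 and at 0.306 and 0.977 in untreated A and B, so that library A alone was low.

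Of the 6 reported genes of the interferon gamma input, 3 had both RESTARTv3 libraries above both untreated ones on the scaled values, where 16.2% of all genes did, and 0 of 6 did on the deposited scale. Irf1, a factor that interferon gamma induces, was at 6.10 and 2.13 RPKM in RESTARTv3 replicates 1 and 2, against 2.20 and 2.73 RPKM in untreated A and B. Its groups overlapped there but not after scaling, and its log2 change on recovered reads was 0.86 with an interval of -0.12 to 1.84 (limma voom). Ifngr1, a receptor subunit for interferon gamma, had a change of 0.38, and Socs1, an inhibitor of the same signal, one of -0.21 (limma voom). Jak2, a kinase bound to the receptor, was at 0.928 and 0.881 scaled RPKM in RESTARTv3 replicates 1 and 2, against 0.252 and 0.857 in untreated A and B, so that library A alone was low. The median change of the 6 was 0.28 and 0 of 6 were called (limma voom). Interferon gamma itself (Ifng) was not analysed here.

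The other class II chains were low, between 0.00951 and 0.853 RPKM, and 0 of 4 were called. H2-Ob, a chain of DO, which restrains DM, was at 0.853 and 0.248 RPKM in RESTARTv3 replicates 1 and 2, against 0.169 and 0.586 RPKM in untreated A and B. H2-Oa, its partner chain, was at 0.192 and 0.0503 RPKM in RESTARTv3 replicates 1 and 2, against 0.189 and 0.168 RPKM in untreated A and B. The groups of both overlapped. After scaling 1 of these 4 genes, H2-DMb2, lay apart and higher in RESTARTv3, where 16.2% of all genes did. Log2 changes on recovered reads were 0.83 for H2-Ob, -0.54 for H2-Oa, 0.58 for H2-DMb2 and 0.67 for H2-Eb2 (limma voom).

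Endosomal proteases and their inhibitors were listed in 10 of 10 cases, with a median change of 0.12 and 0 called (limma voom). After scaling 3 of 10 lay apart and higher in RESTARTv3, where 16.2% of all genes did, and on the deposited scale 0 of 10. Ctsc, which activates other proteases of leukocyte granules, had a pattern like that of Ctss, at 1.28 and 1.23 scaled RPKM in RESTARTv3 replicates 1 and 2, against 0.300 and 0.696 in untreated A and B. Its change was 1.43 with an interval of 0.21 to 2.64 (limma voom, unadjusted p = 0.028, Benjamini-Hochberg adjusted p = 0.771). Ctsl, cathepsin L, had a change of 0.32 and Ctsd, cathepsin D, one of -0.65. Cst3, the secreted inhibitor cystatin C, was at 34.1 and 42.5 scaled RPKM in RESTARTv3 replicates 1 and 2, against 130.3 and 41.9 in untreated A and B, and library A alone was high.

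Of the turnover genes, Marchf8, a ubiquitin ligase, and Cd83, which opposes removal of class II from the surface, had changes of 0.015 and 0.16, and the ligase Marchf1 had 1.26 (limma voom, 0 of 3 called). The genes of costimulation and of the T cell side were low, with at most 0.481 RPKM in any library. Lag3, a T cell receptor for class II, had a change of -0.36, Cd4, the coreceptor, 0.55, and the CD3 chains Cd3e and Cd3d 0.33 and 1.10 (limma voom). Cd40, the costimulatory receptor, had 1.13, and 0 of 6 were called. After scaling 2 of the 3 turnover genes and 3 of these 6 lay apart and higher in RESTARTv3, where 16.2% of all genes did. On the deposited scale 0 did in either list.

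**Figure D4:**
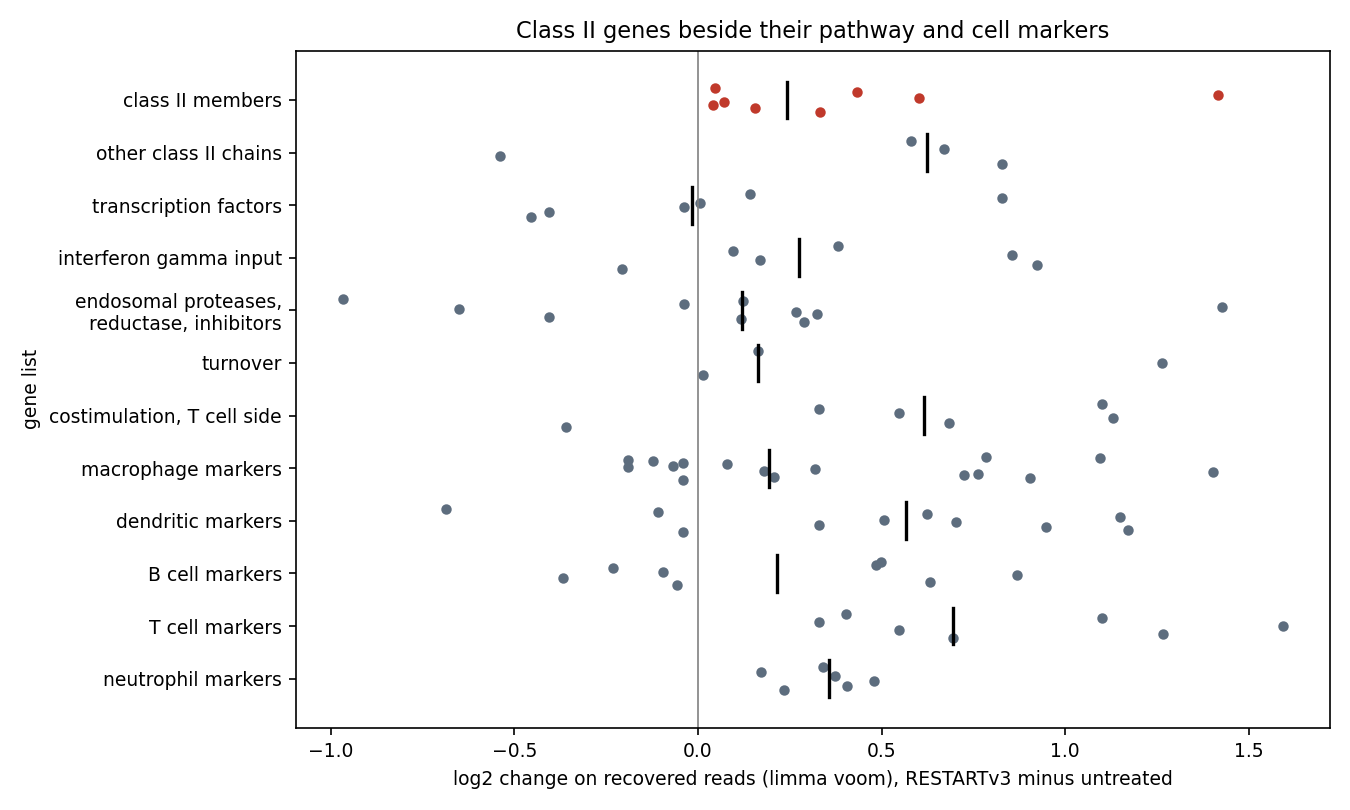
Log2 change on recovered reads, RESTARTv3 minus untreated (limma voom), of each class II gene (red) and of each reported gene of the pathway and cell marker lists (grey), with black bars at list medians. The class II genes lie between 0.041 and 1.42 with a median of 0.24, inside the range of the other immune lists.

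Markers of the cells that could supply class II transcripts were summed per library. The 16 macrophage markers, led by Lyz2, C1qa and C1qc, summed to 129.8 and 103 scaled RPKM in RESTARTv3 replicates 1 and 2, against 106 and 90.3 in untreated A and B, with overlapping groups. Lyz2 alone supplied more of this sum than all other markers together in every library but untreated A, so the sum mostly follows that gene. C1qa was at 9.66 and 10.3 scaled RPKM in RESTARTv3 replicates 1 and 2, against 21.4 and 6.33 in untreated A and B. C1qc likewise had the untreated libraries outermost. Of these markers 6 of 16 lay apart and higher in RESTARTv3 on the scaled values, where 16.2% of all genes did, and 1 of 16 on the deposited values, where 2.24% did. The 10 dendritic cell markers, led by Irf8, Siglech and Clec9a, summed to 3.06 and 2.42 scaled RPKM in RESTARTv3 replicates 1 and 2, against 1.61 and 1.90 in untreated A and B. The 7 listed T cell markers, led by Cd4, Cd8a and Cd3g, summed to 1.07 and 0.978 scaled RPKM in RESTARTv3 replicates 1 and 2, against 0.524 and 0.658 in untreated A and B. Both of these sums lay apart after scaling, as the values of H2-Aa and Ctss did, but both overlapped as deposited. By gene, 4 of 10 dendritic and 5 of 7 T cell markers lay apart and higher after scaling, where 16.2% of all genes did. Irf8 alone was at 1.53 and 1.11 scaled RPKM in RESTARTv3 replicates 1 and 2, against 0.781 and 0.831 in untreated A and B. It was the largest part of the dendritic sum in every library. On recovered reads 7 of 10 dendritic markers lay above the median change of all genes, while Zbtb46, Ccr7 and Batf3 did not. Their log2 changes were -0.042, -0.11 and -0.69 (limma voom). Some T cell markers rested on few reads, such as 6 for Cd3d and 11 for Cd3g in library A. The deposited dendritic sum was 3.96 and 1.53 RPKM in RESTARTv3 replicates 1 and 2, against 1.49 and 2.50 RPKM in untreated A and B, and the T cell sum was 1.39 and 0.620 RPKM in RESTARTv3 replicates 1 and 2, against 0.486 and 0.866 RPKM in untreated A and B.

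The 8 reported B cell markers, led by Cd79b, Cd79a and Vpreb3, did not. They summed to 8.51 and 4.09 scaled RPKM in RESTARTv3 replicates 1 and 2, against 5.41 and 6.99 in untreated A and B, and 0 of 8 lay apart in either direction, where 16.2% of all genes lay apart and higher and 21.5% apart and lower. Neutrophil markers, 6 of 8 listed and led by Ngp, Camp and Elane, were abundant in all libraries, at 422 and 239 scaled RPKM in RESTARTv3 replicates 1 and 2, against 248 and 279 in untreated A and B. Markers of the cochlea's own cells lay on the other side, with median log2 changes on recovered reads of -0.79 for hair cells, -0.60 for supporting cells, -0.82 for the stria vascularis and -0.52 for spiral ganglion neurons (limma voom, 0 called). After scaling, 4 of 6, 3 of 4, 3 of 3 and 2 of 4 of these genes lay apart and lower in RESTARTv3, in the same order, where 21.5% of all genes did. Untreated library A held the highest scaled sum of each of these lists, and library B lay nearer the RESTARTv3 libraries. The hair cell sum was 1.90 and 1.29 scaled RPKM in RESTARTv3 replicates 1 and 2, against 5.25 and 2.07 in untreated A and B. For the stria vascularis it was 4.75 and 4.60, against 9.52 and 5.52. Fibrocyte and mesenchyme markers had a median log2 change of 0.19 on recovered reads (limma voom), with 1 of 4 apart and lower after scaling. The table holds no value of 0 for any gene, so a marker above 0 in every library does not show that its cell type was present. The part of any of these cell types in the class II values was not tested.

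Set against the macrophage list, the summed class II level was 0.400 and 0.387 of it in RESTARTv3 replicates 1 and 2, against 0.518 and 0.304 in untreated A and B, which overlapped. Lyz2 alone made up 59.9% and 51.5% of the macrophage sum in RESTARTv3 replicates 1 and 2, against 26.5% and 59.6% in untreated A and B. Without Lyz2, a choice made after its share was seen, the class II level was 0.997 and 0.799 of the sum in RESTARTv3 replicates 1 and 2, against 0.705 and 0.753 in untreated A and B. The groups then no longer overlapped, so the overlap rests on that gene. The share of all genes that lie apart on this sum was not computed, and C1qa, among the markers left, was itself highest in library A. Relative to Csf1r alone, the receptor that macrophages depend on, 4 of 8 members lay apart and higher in RESTARTv3 cochleae, where 9.61% of all genes did. These were H2-Aa, H2-Eb1, Ciita and Ctss. Ctss reached 1.76 and 1.61 times the RPKM of Csf1r in RESTARTv3 replicates 1 and 2, against 0.279 and 1.06 times in untreated A and B. H2-Aa reached 6.66 and 4.60 times in RESTARTv3 replicates 1 and 2, against 2.64 and 3.87 times in untreated A and B. For Ciita the gap was narrow, at 0.110 and 0.0605 times in RESTARTv3 replicates 1 and 2, against 0.0484 and 0.0596 times in untreated A and B. The other 4 members overlapped on this measure. Csf1r had 1.83 and 2.06 scaled RPKM in RESTARTv3 replicates 1 and 2 and 2.87 and 1.72 in untreated A and B, so this count rests on a single gene that was itself highest in library A.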

How the data were processed

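Cochlear RNA of 2 RESTARTv3 and 2 untreated libraries was grouped by GEO's labels, and both untreated columns share a header name, so they carry no replicate number. The authors deposited RPKM per gene. Per the methods and processing notes, ribosomal RNA was depleted (the labels say polyA RNA), libraries were made with a stranded low-input kit, read 2 was trimmed with cutadapt 4.2, deduplicated, aligned to GRCm39 with STAR 2.7.10b, filtered with SAMtools 1.14 and counted with HTSeq 1.14, with UMI-tools 1.0.0 for identifiers. Genes of poor reproducibility were removed. The methods put that limit at a log2 ratio of replicates above 1, which the table does not follow, since its ratios span -3 to 3. Genes beyond that are not analysed here.

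RPKM values were turned back into whole reads (100% of 21230 genes whole within 0.001) using gene spans. The span was as annotated for 11568 genes on GRCm38.p6, which served for names, spans and neighbours only. For the rest it was solved from the values, so whole reads there are built in. It lay near the annotated span for 5040 genes, Ciita among them. For 4622 genes, no member among them, it was the smallest span that fits, so their reads may be too few. The main test was limma 3.58.1 (R 4.3.3, trend, 2-sided, Benjamini-Hochberg at 0.05) on log2(RPKM + 0.5) for the 5076 genes averaging 1 RPKM or more, a scale on which low genes show too small a change. Alternatives used median-of-ratios scaling, quantile normalization, other pseudocounts and filters, no trend, limma voom on the reads of the 18448 genes averaging 10 reads or more, and each library left out. With 2 libraries a group the smallest 2-sided exact permutation p is 0.333, so single genes were tested only in these fits. The study calls these replicates biological. The labels do not say which mice each library came from, and p-values measure the spread between these libraries.

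The members and lists were chosen with earlier results of these data known. All members are named, and of each pathway list all listed genes if 5 or fewer, otherwise the 3 of highest mean RPKM and the 2 of smallest unadjusted p (limma voom). Promoter motifs and protein identities were planned but not run. Scaling with no filter was added after seeing the data. In all, 2 genes of the lists are not reported here and were left out of every count and sum of the lists.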

Additional observations from a re-analysis of the deposited data

How the results depend on the processing

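Over 21 settings besides the main one no member passed the threshold with all 4 libraries (lowest limma Benjamini-Hochberg adjusted p = 0.763). Ctss passed in 2 settings, after scaling and on recovered reads without untreated library B (adjusted p = 0.0230 and 0.00724), and its other settings gave 0.763 or more. The log2 changes of Cd74 and H2-Ab1, negative on the deposited scale, were 0.0404 and 0.0420 after median-of-ratios scaling (with and without the filter, the fit with none chosen after seeing the data), 0.33 and 0.35 after quantile normalization, and 0.0463 and 0.0705 on recovered reads. H2-DMa and H2-DMb1, at -0.10 and -0.077 with no filter on the deposited scale, were at 0.0408 and 0.155 on recovered reads and at 0.00346 and 0.0608 after scaling with no filter. With each library left out, changes (on the deposited, scaled and recovered-read scales, or on recovered reads alone for H2-DMa, H2-DMb1 and Ciita) ranged from -0.91 to 0.72 for Cd74, -0.36 to 0.96 for H2-Aa, -0.95 to 0.86 for H2-Ab1, -0.61 to 0.71 for H2-Eb1, -0.29 to 0.39 for H2-DMa, -0.38 to 0.70 for H2-DMb1, 0.054 to 0.76 for Ciita and 0.27 to 2.02 for Ctss. The count of genes called was 12 with no filter on low values, 2 on recovered reads without RESTARTv3 replicate 1, and without untreated library B 3 as deposited, 2367 with scaling and 8821 on recovered reads, with a range of 0 to 8821 over all such fits. The cause was not tested. No paired analysis was possible because the untreated columns carry no replicate number.

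With 2 libraries a group, intervals of the members reach about 1 log2 unit or more to each side on recovered reads. Differences smaller than that could go undetected, and so could larger ones after adjustment over all genes. Ctss, at a change of 1.42, did not pass (limma voom, Benjamini-Hochberg adjusted p = 0.771). Genes missing from the table, such as Ifng, Cd86 and Ptprc, were not analysed here.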
